A study of Mus musculus with 24 samples.

Results

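TRIM28-deficient CD4 T cells (KO) were compared 4 h after stimulation with the same cells taken at 0 h, as naive cells. The comparison takes 6 of the 24 arrays of the series, 3 at 0 h and 3 at 4 h, chosen by the genotype and time in the sample titles, and covers the 22180 genes that a probe set names alone. The KO cells were naive CD4 T cells of TRIM28KO mice, and cells of wild-type littermates (WT), 3 arrays at 0 h and 3 at 4 h, are given beside them. All cells were enriched on magnetic beads and sorted by flow cytometry, and the 4 h cells were cultured on bound antibody to CD3 with soluble antibody to CD28, so stimulation and culture come together in every 4 h array. The labels give neither the deleted part of Trim28, nor the promoter or cell type of a Cre, nor the age of the mice, nor the sort gate. They also do not tie the arrays of a group to separate animals, so a p-value here reflects how far these arrays scatter, which may include technical scatter.

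Engagement of the T cell receptor together with CD28 sends calcium, MAP kinase and NF-kappa-B signals to the nucleus within minutes. Immediate early transcription factors come first, followed by cytokines, cytokine receptors and the machinery of growth, while genes that hold naive cells in quiescence are shut off before the cells enter their first division. TRIM28, also called KAP1, binds no DNA itself. It is brought to its targets by KRAB zinc finger proteins and acts there with histone methyltransferases, HP1 proteins and deacetylases as a repressor.

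Levels are log2 intensities as deposited, and a change is the difference of 2 group means on that scale, given with its standard error (SE) in the limma model. A gene counts as past the threshold where its adjusted p, from limma with Benjamini-Hochberg adjustment over all 22180 genes, is below 0.05, and "rose" and "fell" are used for such genes alone. The medians of the 6 KO arrays lay between 3.70 and 3.76. Over the 22180 genes, KO arrays of the same time correlated at 0.994 to 0.995 and arrays of different times at 0.965 to 0.973. At 4 h the KO array numbered 1 moved less than the others: it was the closest to the 0 h level in 78.3% of the genes that rose at least 2-fold (584 of 746, themselves 3.36% of all genes) and in 60.4% of those that fell at least 2-fold (513 of 850, themselves 3.83%). In WT cells the 4 h array numbered 1 was the closest in 63.3% of such rises (570 of 900, themselves 4.06% of all genes) but in 27.1% of the falls (301 of 1111, themselves 5.01%), the lowest share of the 3 arrays. Without KO array 1 of 4 h, 6596 genes passed the threshold, against 6895 with it.

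The T cell identity of the arrays was checked with markers. Cd3e, a chain of the T cell receptor complex, was at 12.01, 11.97 and 11.92 in the 3 KO arrays at 0 h and at 11.88, 11.91 and 11.88 at 4 h. Cd4, the co-receptor of helper T cells, was at 10.95, 10.99 and 11.05 at 0 h and at 10.42, 10.48 and 10.29 at 4 h, a fall of 0.60 (SE 0.07, adjusted p = 3.77e-08 from limma), and it fell in WT too (-0.73). Cd8a and Cd8b1, which mark CD8 T cells, were at changes of -0.05 and -0.09, neither past the threshold. Trim28 itself was at 5.12, 4.93 and 5.44 in KO at 0 h and at 5.49, 5.23 and 5.24 at 4 h, with overlapping arrays and a change of 0.16 (adjusted p = 0.416 from limma). In WT it rose by 0.64, and the difference between the 2 responses (-0.48, adjusted p = 0.295) did not pass. The position of its probes relative to the deletion is not known here, so this level checks the labels only in part. In both KO groups every array lay below the WT arrays, whose means were 7.78 at 0 h and 8.42 at 4 h.

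At 4 h, 6895 of the 22180 genes (31.1%) had changed in KO cells, 3343 higher (15.1%) and 3552 lower (16%). At least 2-fold rises numbered 746 (3.36%) and at least 2-fold falls 850 (3.83%). Of these, 109 genes rose and 118 fell at least 4-fold, whereas 36 rose and 15 fell at least 8-fold. The KO arrays of the 2 times did not overlap for 8784 genes (39.6%). The median change over all genes was -0.004. The counts given for each list below are to be read against the 31.1% of all genes that changed. That share takes in genes near the floor of the scale. With genes below the 40th percentile of level left out, 6859 of the fewer genes passed, a higher share. Most lists had a median level at 0 h above that of all genes, so a share above 31.1% does not by itself set a list apart. Such a share can even lie below that of genes of a similar level, which was not counted. The genes that rose at least 2-fold had a median level of 6.36 at 0 h and those that fell 7.33, against 3.69 for all genes. With the arrays numbered 2 as the only KO arrays, a setting without KO replicates that takes the spread from WT, 4125 genes passed, 2165 higher and 1960 lower. Those arrays had the lowest summed levels of B cell and myeloid markers of the KO arrays at both times. With a lone KO array at each time, a call can be lost in that setting although the change is as large as before. Many of the at least 2-fold changes were still there later: in group means, 397 of the 746 rises were at least 2-fold above 0 h at 24 h and 423 at 72 h, and 442 and 476 of the 850 falls were at least 2-fold below it. The 0 h arrays in these later differences are those with which the genes were chosen, which favours such counts. The share of all genes with later changes of this size was not counted.

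Transcription factors of the first wave held the strongest rise. Nr4a2, an orphan nuclear receptor induced by T cell receptor signals, was at 4.26, 4.20 and 4.31 in the KO arrays at 0 h and at 9.69, 10.31 and 10.31 at 4 h. It rose 57.6-fold (5.85 on the log2 scale, SE 0.20, adjusted p = 7.45e-18 from limma), and the 3 arrays of 4 h lay far above those of 0 h, with array 1 the lowest. Its relatives Nr4a3 (4.23) and Nr4a1 (3.25) rose with it, Nr4a1 from 8.60, 8.85 and 8.83 to 11.89, 12.04 and 12.09. Nr4a2 stood at 7.09 ± 0.12 (SD, n = 3) in KO at 24 h and at 8.64 ± 0.05 at 72 h, so its level at 4 h was the highest of the 4 times. In the list of 21 immediate early factors, 13 rose and 4 fell, with a list median of 0.58. Fosl2 (3.0), Egr2 (2.95), Egr3 (2.67), Atf3 (2.56) and Egr1 (1.99) rose, Egr1 to Egr3 being zinc finger factors induced through MAP kinases. The AP-1 subunit genes Jun (-2.77), Fos (-1.56), Junb (-1.27) and Jund (-1.20) fell. Jun was at 10.88, 10.53 and 10.65 at 0 h and at 7.61, 8.12 and 8.02 at 4 h, so the fall started from a high level. The design has no cells kept in culture without stimulation, so the effects of stimulation and of time in culture cannot be told apart for any of these genes.

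Brakes on MAP kinase signalling were induced beside the factors that the pathway drives. Of 16 feedback genes, 10 rose and 3 fell (median 0.80). Spry1, a Sprouty inhibitor of RAS signalling, was at 5.14, 4.83 and 5.38 at 0 h and at 8.97, 9.33 and 9.35 at 4 h, a rise of 4.10 (SE 0.15). Spred1 (2.58), which holds RAF in check, and the phosphatase gene Dusp4 (1.96) also rose, while the phosphatase genes Dusp7 (-1.37) and Dusp1 (-0.98) fell. Rgs16, which switches off G protein signals, rose by 4.90. Spry1 rose more in WT, by 5.23 (difference -1.13, SE 0.21, adjusted p = 0.00571 from limma), a call that was lost with arrays 1 and 2 alone (-0.79), with the groups compared alone (-1.13) and with the arrays numbered 2 as the only KO arrays (-0.73).

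NF-kappa-B subunits and their inhibitors moved in both directions, 9 of 15 higher and 5 lower (median 0.32; 3 lower with the arrays numbered 2 as the only KO arrays). The subunit genes Rel (1.63), Nfkb2 (1.45) and Relb (1.12) and the nuclear inhibitor gene Nfkbid (1.96) rose. Rel was at 9.35, 9.21 and 9.03 at 0 h and at 10.59, 10.90 and 11.01 at 4 h. Bcl3, a co-activator of NF-kappa-B p50, fell by 2.23, and the inhibitor gene Nfkbie fell by 0.56. Promoter sequence was searched for the kappa-B motif, on both strands in the 250 bases before the first start site, a motif chosen after values were seen. It lay in 6 of the 13 promoters of this list (46.2%), against 685 of 16990 promoters (4.03%), and in 5.18% of the promoters of genes that rose at least 2-fold and 4.61% of those that fell. These 3 promoter stretches of the list, from RefSeq on GRCm38.p6 and written 5′ to 3′ on the strand of the gene, belong to genes that moved in opposite directions, and capitals mark the motif.
Rel, chr11:23771012-23771091, minus strand: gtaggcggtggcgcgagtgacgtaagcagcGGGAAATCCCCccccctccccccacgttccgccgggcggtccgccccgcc
Nfkb2, chr19:46304668-46304736, plus strand: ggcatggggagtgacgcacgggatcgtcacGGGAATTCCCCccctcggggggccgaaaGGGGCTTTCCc
Nfkbie, chr17:45555564-45555643, plus strand: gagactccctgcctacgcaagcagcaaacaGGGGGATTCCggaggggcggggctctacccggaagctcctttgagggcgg
Rel and Nfkb2 rose and Nfkbie fell, so the presence of these letters did not go with one direction of change.

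Among 22 transcription factors of activation and differentiation, 10 rose and 4 fell. Irf4, which scales effector programmes with receptor strength, was at 5.56, 5.71 and 6.04 in KO at 0 h and at 10.06, 10.36 and 10.35 at 4 h, a 22.4-fold rise (4.48, SE 0.11, adjusted p = 9.69e-20 from limma), and stayed at 10.03 ± 0.04 (SD, n = 3) at 24 h and 9.93 ± 0.07 at 72 h. Bhlhe40 (1.63), Crem (1.35) and the hypoxia factor gene Hif1a (1.34) rose, whereas Gata3 (-1.18), the factor of T helper 2 cells, Batf (-1.15), Nfatc3 (-0.89) and Nfatc2 (-0.85) fell. Irf8 rose by 1.77 in KO, from 4.82, 4.80 and 4.84 to 6.31, 6.71 and 6.75, and by 2.90 in WT (difference -1.13, SE 0.21, adjusted p = 0.00516 from limma). The difference in Irf8 lost its call with the mean of its probe sets (-0.64) and with the arrays numbered 2 as the only KO arrays (-1.0). Foxp3, the factor of regulatory T cells, was at -0.46 (adjusted p = 0.173).

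Of 26 cytokine genes on the array 6 rose and 3 fell, 34.6% in all against 31.1% of all genes (median 0.07; 1 lower with the arrays numbered 2 as the only KO arrays). Il2, the growth factor of activated T cells, was near the floor of the scale at 0 h (3.31, 2.96 and 2.95) and at 6.74, 6.59 and 7.09 at 4 h. This was a 13.3-fold rise (3.73, SE 0.18, adjusted p = 5.13e-15 from limma) with no overlap, and the WT rise was 3.62. Tnf, which naive cells already expressed, went from 7.86, 8.17 and 7.82 to 10.79, 11.12 and 10.92 (2.99), Lif rose by 1.61 and Lta, the gene of lymphotoxin alpha, by 1.05. Effector cytokine genes showed no call: Ifng was at -0.06, Il4 at -0.12, Il17a at 0.23 and Csf2 at -0.01. Il4 and Csf2 lay near the floor of the scale at both times, with 2.73 the highest KO array for Il4 and 3.09 for Csf2.

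Of 10 chemokine genes 4 rose and 0 fell, with a median of 0.12. Xcl1, the ligand of the receptor XCR1 on cross-presenting dendritic cells, was at 3.52, 3.67 and 3.65 at 0 h and at 8.48, 9.48 and 9.24 at 4 h, a 43.8-fold rise (5.45, SE 0.23, adjusted p = 6.9e-16 from limma) with array 1 of 4 h the lowest. Ccl3, an inflammatory chemokine, went from 3.91, 4.15 and 4.47 to 6.70, 6.46 and 6.79 (2.47, SE 0.16). In WT cells Ccl3 rose by 1.15, from a higher level at 0 h (5.04 ± 0.32, SD, n = 3, against 4.18 ± 0.28 in KO), and the difference between the responses was 1.32 (SE 0.23, adjusted p = 0.00261 from limma; 1.16 and no longer past the threshold with the arrays numbered 2 as the only KO arrays). The other two that rose were Ccl4 (0.84) and Cxcl10 (0.41), and 2 of the list rose with the arrays numbered 2 as the only KO arrays. The call of Cxcl10 also ended on leaving out any of 4 single KO arrays: array 1 or 2 of 0 h (0.33 and 0.40) or array 1 or 3 of 4 h (0.37 and 0.32).

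Chemokine and homing receptors moved both ways. Ccr8, a receptor of skin-homing and regulatory T cells, was at 2.82, 3.54 and 4.20 at 0 h and at 8.11, 9.33 and 9.03 at 4 h, a 39.6-fold rise (5.31, SE 0.27), and the WT rise was also 5.31. Cxcr3 (1.88) and Ccr4 (1.72) rose, and Cxcr4 (-1.39), S1pr4 (-1.18) and S1pr1 (-1.06), through which cells leave lymph nodes, fell. In all 5 of 16 receptors rose and 4 fell. Ccr4 went from 3.29, 3.0 and 3.36 to 4.70, 5.24 and 4.87 in KO and rose by 3.31 in WT. The difference of -1.59 (SE 0.23, adjusted p = 0.00026 from limma) means that KO cells reached 4.94 ± 0.28 (SD, n = 3) where WT cells reached 6.51 ± 0.34. It lost its call with the arrays numbered 2 as the only KO arrays (-1.07). Ccr7, which keeps naive cells in lymph nodes, fell by 0.34 in KO (10.50, 10.48 and 10.41 to 10.01, 10.18 and 10.18) and by 1.0 in WT (difference 0.66, SE 0.10, adjusted p = 0.000685 from limma). That difference was 0.55 with arrays 1 and 2 alone and 0.70 with the arrays numbered 2 as the only KO arrays, without a call in either setting, and the fall of Ccr7 in KO itself lost its call in the latter (-0.30).

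Cytokine receptors and their feedback genes moved both ways. Of 27 receptor and STAT feedback genes, 10 rose and 12 fell (median -0.13; 6 higher with the arrays numbered 2 as the only KO arrays). Il2ra, the chain that gives the interleukin 2 receptor high affinity, went from 6.85, 6.80 and 6.41 to 10.05, 10.29 and 10.47, a 12-fold rise (3.58, SE 0.11), and was at 11.24 ± 0.05 (SD, n = 3) at 72 h. Il2ra rose less in KO than in WT past the threshold, with a difference of -0.85 to -0.58 in the fits that left out 1 array. That call was lost in 8 of those fits. Il12rb2, a chain of the interleukin 12 receptor, rose by 1.59 and Il2rb by 0.62. The interleukin 7 receptor gene Il7r fell by 1.5, with the 4 h arrays at 9.78, 9.30 and 8.85 against 10.75, 10.76 and 10.94 at 0 h, and Il6ra (-1.37), Il10ra (-1.51) and Il27ra (-1.15) fell too. Socs3, a feedback inhibitor of STAT3 signals, fell by 2.86 and the survival kinase gene Pim2 likewise (-1.67). The receptors for type I interferon, Ifnar1 (-0.57) and Ifnar2 (-0.61), were lower.

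Members of the TNF and TNF receptor families and other co-stimulatory genes rose as a group: 21 of 28 were higher and 6 lower, with a median of 0.83 against -0.004 over all genes. Tnfrsf9, which encodes 4-1BB, was at 7.32, 7.11 and 7.70 at 0 h and at 11.13, 11.41 and 11.36 at 4 h (3.92, SE 0.12), and Tnfsf11, the gene of RANKL, rose by 4.36. Slamf1 (3.22), Cd24a (2.89), Tnfsf14 (2.86), Icos (1.81), Cd83 (1.71), Tnfrsf4, which encodes OX40 (1.59), Cd40lg (1.52) and the early activation marker gene Cd69 (1.29) followed. Cd44, a marker of antigen experience, rose by 0.56, from 5.53, 5.54 and 5.76 to 6.12, 6.21 and 6.17. Cd226, an activating receptor for nectin ligands, fell by 2.63, as did Tnfsf10, the gene of TRAIL (-2.30). Tnfrsf1b, which encodes TNF receptor 2, rose by 1.5 in KO and 2.21 in WT (difference -0.71, SE 0.13, adjusted p = 0.0046 from limma), and Cd226 fell less in KO than in WT, where it fell by 3.60 (difference 0.97, SE 0.17, adjusted p = 0.00321). Both differences lost their call with arrays 1 and 2 alone (-0.64 and 0.90) and with the arrays numbered 2 as the only KO arrays (-0.54 and 0.89).

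Inhibitory receptor genes were induced at the same time as the co-stimulatory ones, 9 of 14 higher and 3 lower (median 0.72). Pdcd1, the gene of PD-1, went from 5.03, 5.29 and 5.21 to 8.85, 9.08 and 9.29, a 14.9-fold rise (3.90, SE 0.14, adjusted p = 1.71e-17 from limma). Tigit (2.45), Cd274, the gene of PD-L1 (1.94), and Cd160 (1.64) rose, while Cd96 (-1.31) and Lair1 (-1.23) fell. Tigit and Cd226 encode an inhibitory and an activating receptor for the same ligands, and their transcripts moved in opposite directions. Ctla4, a competitor of CD28, was at 6.29, 6.06 and 6.06 in KO at 0 h and at 6.29, 6.18 and 6.07 at 4 h, with overlapping arrays (0.04, adjusted p = 0.831), but fell by 0.63 in WT. The difference for Ctla4 was 0.67 (SE 0.14, adjusted p = 0.0128 from limma) and was not called after quantile normalization (0.55), with the groups compared alone (0.67), with arrays 1 and 2 alone (0.63) or with the arrays numbered 2 as the only KO arrays (0.75).

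**Figure D1:**
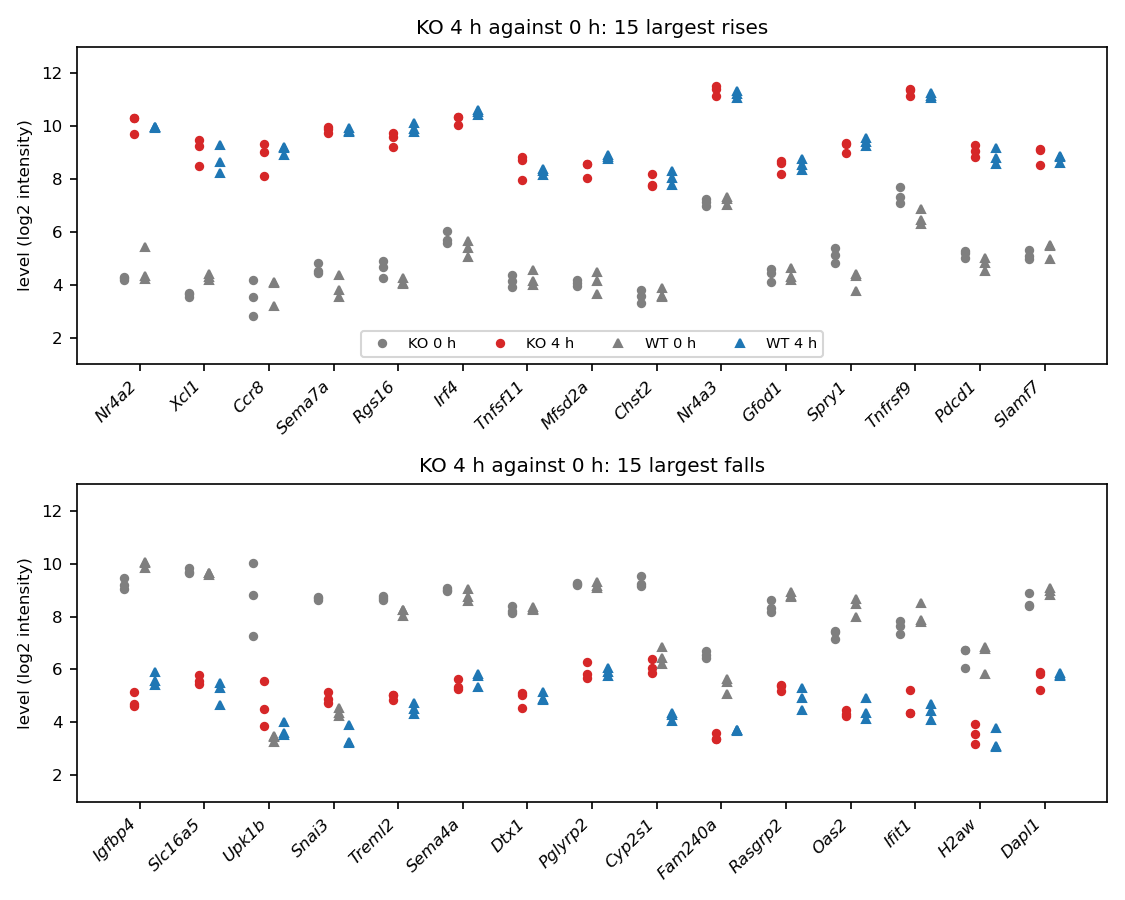
Level in each array (log2 intensity, vertical axis) of the 15 genes with the largest rises (top) and the 15 with the largest falls (bottom) in KO cells at 4 h against 0 h. Circles are KO and triangles WT arrays, grey at 0 h and coloured at 4 h. The 30 genes were chosen among those whose KO arrays of the 2 times do not overlap, so their separation follows from the choice. For Upk1b and Snai3 the WT arrays at 0 h sit near 3.40 and 4.38, well below the KO arrays.

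Beyond these lists, the 15 largest rises included the semaphorin gene Sema7a (5.26), the lysophospholipid transporter gene Mfsd2a (4.33), the sulfotransferase gene Chst2 (4.33), Gfod1 (4.12) and Slamf7 (3.80). Sema7a went from 4.84, 4.51 and 4.46 to 9.75, 9.96 and 9.89. In the plot of the largest changes the KO arrays of both times are shown beside the WT arrays. Among the 15 largest falls, Igfbp4, an insulin-like growth factor binding protein found in naive T cells, dropped from 9.46, 9.06 and 9.20 to 5.15, 4.62 and 4.70. That fall of 21.3-fold (-4.41, SE 0.14, adjusted p = 2.49e-18 from limma) was of the WT size (-4.34). The monocarboxylate carrier gene Slc16a5 (-4.14), Treml2 (-3.74), the semaphorin gene Sema4a (-3.59), Dtx1, a regulator of NOTCH signalling (-3.35), Pglyrp2 (-3.29), Rasgrp2, an activator of RAP1 (-3.06), and Dapl1 (-2.92) fell as well. Cyp2s1 (-3.20) and Fam240a (-3.12) fell from levels of 9.30 ± 0.20 and 6.56 ± 0.13 (SD, n = 3). For Fam240a the WT fall was -1.73 (difference -1.39, SE 0.21, adjusted p = 0.000651 from limma; -1.46 and not called with the arrays numbered 2 as the only KO arrays).

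Genes of the naive and quiescent state went down. Of 24 in the list 17 fell and 4 rose, with a median of -0.67 against -0.95 in WT, where 18 fell and 2 rose. The 4 rises became 2 without KO array 1 of 0 h, without KO array 3 of 4 h or with the arrays numbered 2 as the only KO arrays. Pik3ip1, an inhibitor of PI3 kinase, was at 8.11, 8.18 and 8.61 at 0 h and at 5.93, 5.79 and 5.62 at 4 h (-2.52, SE 0.16). Txnip, which limits glucose uptake (-1.72), the quiescence factor gene Klf2 (-1.49), the cell cycle inhibitor gene Cdkn1b (-1.23) and Lef1 (-0.76) fell, and Bach2, a repressor that keeps T cells naive, rose by 0.99. Klf2 had 9.18, 8.76 and 8.93 at 0 h and 7.74, 7.51 and 7.15 at 4 h, and went on to 6.46 ± 0.47 (SD, n = 3) at 24 h and 4.58 ± 0.18 at 72 h. Over the list the KO median against 0 h was -1.25 at 24 h and -1.45 at 72 h, with 20 and 22 of the 24 genes lower.

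Klf3 is in the same list. This repressor of the Kruppel-like family was at 8.27, 8.37 and 8.44 in KO cells at 0 h and at 8.25, 8.34 and 8.21 at 4 h, with overlapping arrays and a change of -0.09 (adjusted p = 0.636 from limma). In WT cells Klf3 fell by 1.45, from 8.78, 8.73 and 8.46 to 7.33, 7.16 and 7.14. The difference of 1.35 (SE 0.16, adjusted p = 2.3e-05 from limma) kept its call in every other setting that was run. The KO level came down later, to 7.41 ± 0.25 (SD, n = 3) at 24 h and 7.13 ± 0.05 at 72 h. The Gimap GTPases, small GTP-binding proteins that support the survival of naive T cells, fell in 3 of 8 cases in KO (37.5%, against 31.1% of all genes) and 7 of 8 in WT (medians -0.19 and -0.45). Their median level in KO at 0 h was 8.51, against 3.69 over all genes. None of the 8 responses differed past the threshold. Gimap7 fell by 0.71 in KO and 1.41 in WT (difference 0.70, SE 0.23, adjusted p = 0.198). Arrays 1 and 2 alone left 1 Gimap gene called in KO, and the arrays numbered 2 as the only KO arrays left 0.

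Signalling genes around the T cell receptor moved both ways, 11 of 28 higher and 13 lower (median -0.08). The kinase gene Zap70 (1.26), the phosphatase gene Ptpn22 (1.38) and the ubiquitin ligase gene Cblb (1.26) rose. Themis, needed for the development of T cells, went from 9.05, 8.95 and 8.71 to 6.99, 6.92 and 6.97 (-1.94), and the adaptor gene Grap2 fell by 1.20. Among markers of T cell identity, Thy1 (-1.45) and Bcl11b (-1.35) fell as well, and the summed log2 level of the 13 markers was 128.0 to 128.9 in the KO arrays at 0 h and 125.8 to 127.7 at 4 h.

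Interferon-stimulated genes formed the group with the lowest median: all 30 fell in KO and all 30 in WT, with medians of -1.51 and -1.84, and 22 fell at least 2-fold in KO. This list holds antiviral enzymes and sensors that interferon signalling switches on, and naive KO cells expressed many of them at 0 h. Oas2, which makes the activator of RNase L, was at 7.43, 7.46 and 7.13 at 0 h and at 4.23, 4.48 and 4.31 at 4 h, an 8-fold fall (-3.0, SE 0.17, adjusted p = 1.46e-13 from limma). Ifit1, which binds foreign RNA, was at 7.36, 7.64 and 7.84 and then at 5.23, 4.37 and 4.35 (-2.96, SE 0.21). Array 1 of 4 h was the highest of the 4 h arrays for Ifit1. Irf7, the factor that amplifies interferon production, fell by 2.43, from 7.98, 8.39 and 8.13 to 5.52, 5.82 and 5.85, and Stat2 (-1.67), Irf9 (-1.53) and Irf1 (-1.32) fell beside it. The least lowered were Isg15 (-0.59), Ifih1 (-0.71) and Gbp3 (-0.72), and the call of Isg15 ended without KO array 2 of 4 h (-0.48). With the arrays numbered 2 as the only KO arrays 28 of 30 fell, with a median of -1.70, the other two being Mx1 (-0.63) and Bst2 (-0.92).

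Promoters of this list were searched for the interferon response element, spelled as GAAA, any 2 bases and GAAA again, on both strands, in the 250 bases before the first start site, again a motif chosen after values were seen. The RefSeq table holds 23 of the promoters, and 11 contained it (47.8%), against 501 of 16990 promoters (2.95%). It lay in 37 of 651 promoters of genes that fell at least 2-fold (5.68%) and in 10 of 579 of those that rose (1.73%). The 6 stretches below belong to the genes with the motif that fell most, on GRCm38.p6 and written 5′ to 3′ on the strand of the gene, with every match in capitals; where the motif lies on the other strand it shows TTTC in place of each GAAA.
Ifit1, chr19:34640755-34640843, plus strand: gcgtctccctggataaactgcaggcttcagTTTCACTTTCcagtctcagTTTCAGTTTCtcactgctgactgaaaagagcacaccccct
Oas3, chr5:120777685-120777764, minus strand: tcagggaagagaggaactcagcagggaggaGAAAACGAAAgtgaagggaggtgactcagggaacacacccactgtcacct
Stat2, chr10:128270248-128270327, plus strand: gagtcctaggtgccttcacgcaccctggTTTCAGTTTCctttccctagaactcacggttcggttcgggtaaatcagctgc
Rsad2, chr12:26456523-26456602, minus strand: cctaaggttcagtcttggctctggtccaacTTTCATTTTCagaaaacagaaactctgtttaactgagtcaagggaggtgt
Trim30a, chr7:104465194-104465259, minus strand: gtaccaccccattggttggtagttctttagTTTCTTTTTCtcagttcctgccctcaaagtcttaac
Bst2, chr8:71537553-71537632, minus strand: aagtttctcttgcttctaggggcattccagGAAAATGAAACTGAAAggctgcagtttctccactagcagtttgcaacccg
Ifit1 carries 2 matches in its stretch and Bst2 a pair that overlap. The falls of these 6 genes were -2.96, -2.13, -1.67, -1.27, -1.18 and -1.09 in that order. Isg15, with 3 overlapping matches, had the smallest fall of the list (-0.59), so the number of matches did not rank with the size of the fall. A match describes letters in this window and is not evidence of binding.

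**Figure D2:**
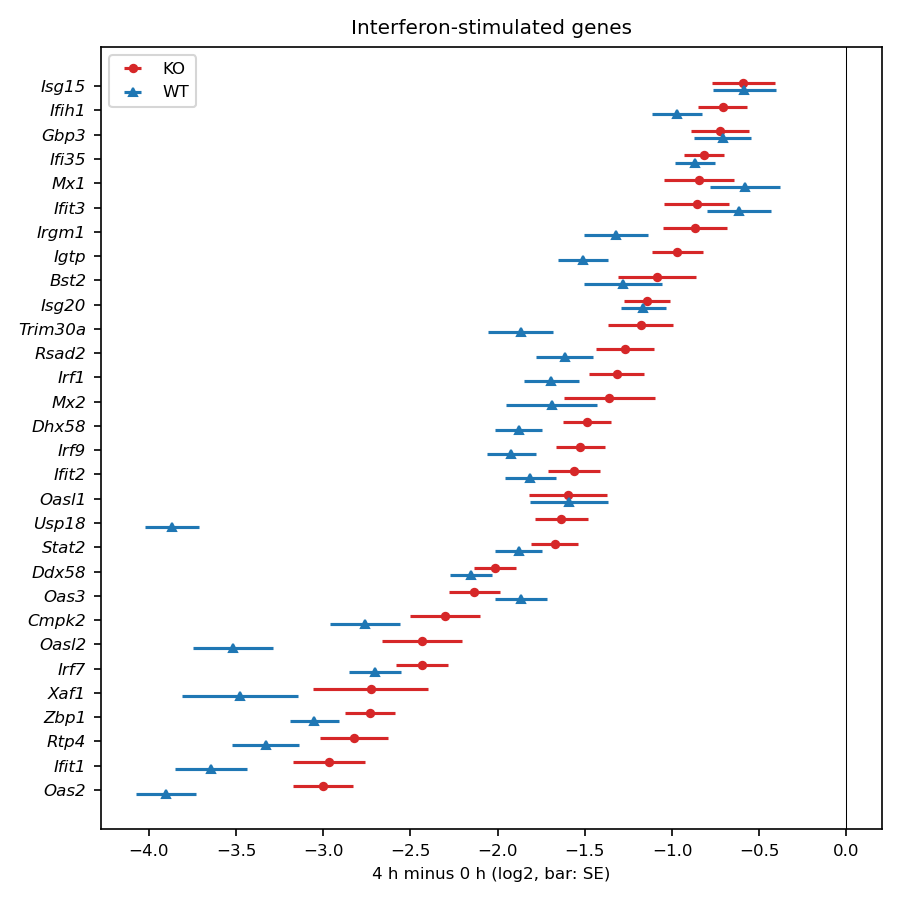
Change at 4 h against 0 h (log2, horizontal axis) of the 30 interferon-stimulated genes in KO (red circles) and WT (blue triangles), ordered by the KO change, with the SE of limma's fit as bars. All points lie below 0, and Usp18 shows the widest gap between the genotypes (-1.63 in KO and -3.87 in WT).

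Usp18 was the one gene of the 30 whose response differed between the genotypes past the threshold. It encodes a protease that removes ISG15 from proteins and blocks the type I interferon receptor. In KO it was at 9.79, 9.84 and 9.86 at 0 h and at 8.44, 8.08 and 8.08 at 4 h (-1.63, SE 0.15), and in WT it went from 9.17, 8.91 and 8.78 to 4.97, 5.18 and 5.11 (-3.87). The difference of 2.23 (SE 0.22, adjusted p = 8.58e-07 from limma) was the largest positive one among named genes, and the plot of the interferon list sets it beside the others. At 24 h Usp18 was at 7.90 ± 0.48 in KO and 5.04 in WT, and at 72 h at 9.56 ± 0.22 and 10.82 (SD, n = 3). Other members came back as well: the KO median of the list against 0 h was -1.46 at 24 h and -0.14 at 72 h, and Irf7 returned to 7.65 ± 0.24 at 72 h while Oas2 stayed at 4.36 ± 0.08.

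Myc, a driver of cell growth, and the genes of ribosome assembly rose. Myc went from 8.61, 8.83 and 8.89 to 10.07, 10.44 and 10.52 in KO (1.57, SE 0.09, adjusted p = 9.45e-14 from limma), while its antagonists Mxd4 (-1.53) and Mxd1 (-0.95) fell. In the MYC, MAX and MXD network as a whole 1 of 13 genes rose and 3 fell, 30.8% in all against 31.1% of all genes, and 2 rose without KO array 1 of 0 h or KO array 1 or 3 of 4 h. Of 34 ribosome biogenesis genes, 34 rose in KO and 34 in WT, with medians of 1.53 and 1.68, and 27 rose at least 2-fold in KO. Polr1b, the second largest subunit of RNA polymerase I, led with 2.07, from 6.16, 5.86 and 6.03 to 7.90, 8.16 and 8.21, and Pno1 (1.98), Noc3l (1.94), Nop2 (1.90) and Gnl3 (1.88) were close behind. Ncl, the abundant nucleolar protein nucleolin, rose by 1.30 and the RNA polymerase I and III subunit gene Polr1c by 0.32, the smallest rise of the list, which was not called with arrays 1 and 2 alone (0.30) or with the arrays numbered 2 as the only KO arrays (0.46). No response of these 34 genes differed between the genotypes past the threshold. The E-box CACGTG, the motif that MYC binds with MAX, lay in 2 of the 30 ribosome biogenesis promoters (6.67%), in 53 of 579 promoters of at least 2-fold rises (9.15%) and in 6.87% of all promoters.

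**Figure D3:**
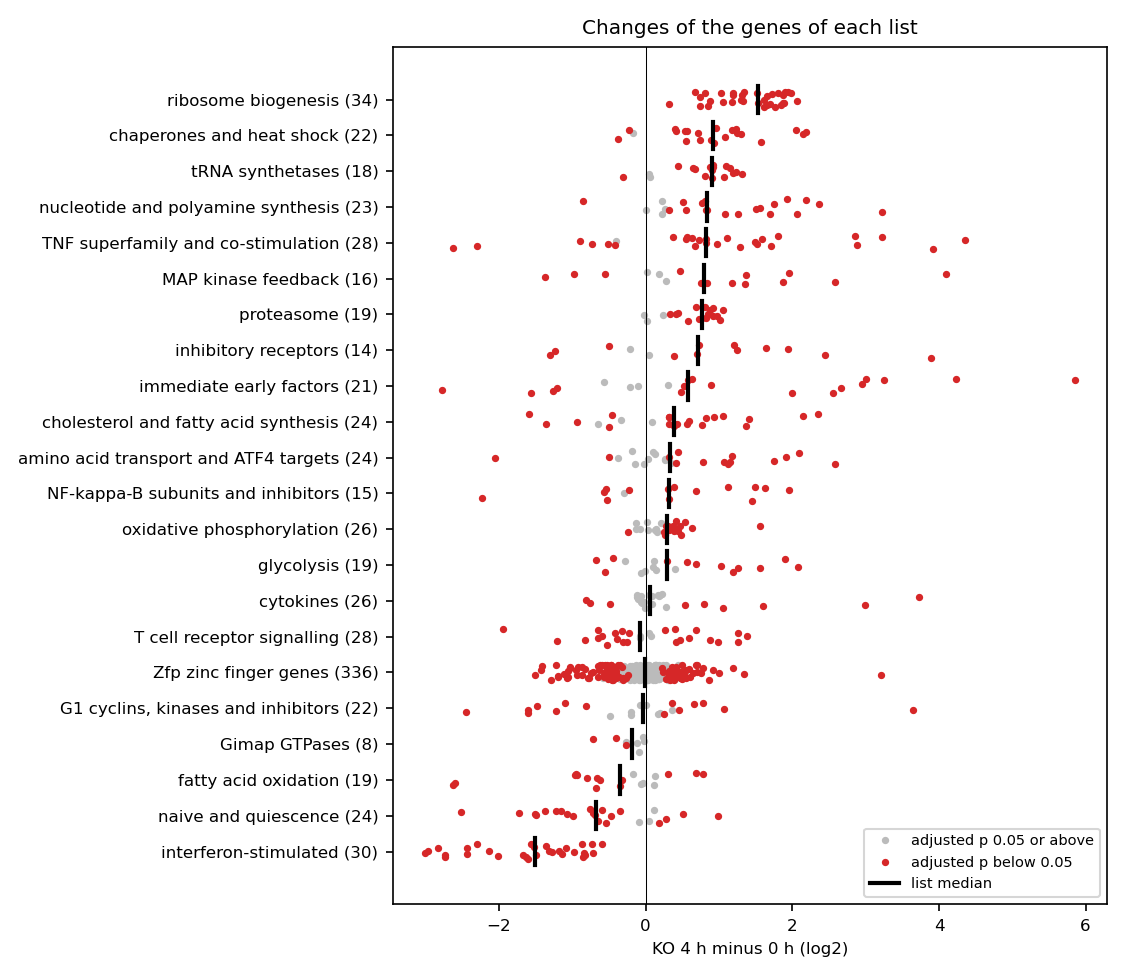
Change at 4 h against 0 h in KO cells (log2, horizontal axis) of every measured gene of 22 lists, with the number of genes in brackets; red points passed the threshold, grey points did not, and a black bar marks the list median. Ribosome biogenesis (median 1.53) stands at the upper end and the interferon-stimulated genes (-1.51) at the lower end.

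Supply of building blocks rose with it. Of 24 amino acid transport and ATF4 target genes 12 rose and 2 fell (median 0.33), led by the glutamine carrier gene Slc1a5 (2.58), the arginine carrier gene Slc7a1 (2.10), Psat1 of serine synthesis (1.91) and the leucine carrier gene Slc7a5 (1.76). Slc1a5 went from 6.36, 6.32 and 6.37 to 8.90, 9.0 and 8.90. Atf4 itself was at 0.10 without a call, and Ddit4, an inhibitor of mTORC1, fell by 2.05. In the list of tRNA synthetases 15 of 18 rose and 1 fell (median 0.90). Nucleotide and polyamine synthesis had 18 of 23 higher and 1 lower (median 0.84), with Shmt1, which feeds one-carbon units, at 5.35, 5.12 and 4.88 before and 8.18, 8.31 and 8.53 after (3.22, SE 0.12). The transferrin receptor gene Tfrc, kept in that list (2.36), the spermidine synthase gene Srm (2.18) and the ornithine decarboxylase gene Odc1 (1.93) rose too.

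Protein folding and turnover genes rose in most cases, 19 of 22 chaperones (2 lower, median 0.91) and 16 of 19 proteasome subunits (0 lower, median 0.77). The mitochondrial chaperone gene Hspd1 went from 6.87, 7.52 and 7.46 to 9.34, 9.35 and 9.33 (2.06), and Hsph1 rose by 2.19. The 2 lowered chaperones were Dnajb1 (-0.23) and Dnajb4 (-0.37), and leaving out any single KO array left 1 or 0 of them called. Hspa1a rose by 2.15 to 5.14, 6.35 and 6.43, with array 1 of 4 h apart from the others. It shares nearly all of its sequence with Hspa1b (1.57), so these probes may not separate the pair.

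The lists of energy metabolism held rises and falls. Glycolysis had 9 of 19 genes higher and 3 lower (median 0.29; 0 lower with the arrays numbered 2 as the only KO arrays): the lactate carrier gene Slc16a1 (2.08), hexokinase 2 (Hk2, 1.90), Slc16a3 (1.56) and the glucose transporter gene Slc2a1 (0.68) rose, and Ldha was at 0.10 without a call. Oxidative phosphorylation had 16 of 26 higher and 1 lower (median 0.29; 10 higher with the arrays numbered 2 as the only KO arrays), with cytochrome c (Cycs) at 1.56. In fatty acid oxidation 11 of 19 fell and 3 rose (median -0.35; 7 lower with the arrays numbered 2 as the only KO arrays). Cpt1a, the gate for fatty acids into mitochondria, went from 8.77, 8.78 and 9.01 to 6.26, 6.18 and 6.24, a 6.17-fold fall (-2.63, SE 0.10, adjusted p = 9.17e-17 from limma), and Hadh fell by 2.59. Acadm, the medium-chain dehydrogenase, moved against the WT direction: it was at 9.24, 9.14 and 9.08 and then at 9.55, 9.40 and 9.41 in KO (0.30) and fell by 0.66 in WT (difference 0.97, SE 0.10, adjusted p = 3.19e-06 from limma). The rise of Acadm lost its call with the arrays numbered 2 as the only KO arrays (0.26), whereas the difference did not. Its short-chain relative Acads fell by 0.94 in KO and 1.44 in WT (difference 0.50, adjusted p = 0.0122), which was not called after quantile normalization (0.41), with the groups compared alone (0.50), with arrays 1 and 2 alone (0.52) or with the arrays numbered 2 as the only KO arrays (0.47).

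Cholesterol and fatty acid synthesis rose in 16 of 24 genes and fell in 5 in KO, and 16 and 4 in WT, with medians of 0.39 and 0.72. The KO counts were 9 and 3 with the arrays numbered 2 as the only KO arrays. Cyp51 (2.35), the squalene epoxidase gene Sqle (2.14), Acaca (1.42) and Fasn (1.37) rose, and Elovl6 (-1.36) and Dhcr7 (-0.93) fell. Cyp51 was at 4.33, 4.80 and 4.82 at 0 h and at 7.25, 7.10 and 6.66 at 4 h, and rose by 3.15 in WT (difference -0.80, SE 0.20, adjusted p = 0.0519 from limma, just short of the threshold). Mvd, which makes isopentenyl pyrophosphate, went the other way: it fell by 1.58 in KO, from 6.25, 6.12 and 6.08 to 4.79, 4.57 and 4.34, and was at -0.25 in WT without a call. The difference of -1.33 for Mvd (SE 0.17, adjusted p = 7.24e-05) lost its call with the arrays numbered 2 as the only KO arrays (-1.30). The responses of Hmgcs1 and Fdft1 were also lower in KO past the threshold. Their differences were -1.02 to -0.75 and -0.88 to -0.68 in the fits that left out 1 array, and each call was lost in 4 of those fits. Of 19 promoters of this list 14 held the letters CCAAT on either strand (73.7%), against 35.7% of all promoters. The share was not particular to this list: over the lists searched it ran from 15.4% to 84%, the latter in DNA replication and mitosis. Promoters of at least 2-fold rises held the letters in 34.7% of cases and those of falls in 38.7%.

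Genes of the cell cycle were called in both directions at 4 h. Of 29 genes of DNA replication and mitosis 9 rose and 9 fell (median -0.10), and none changed at least 2-fold. The helicase subunit gene Mcm6 rose by 0.73, from 7.35, 7.44 and 7.47 to 8.25, 8.07 and 8.12, and the proliferation marker gene Mki67 fell by 0.77, from 5.25, 5.11 and 5.27 to 4.54, 4.31 and 4.45. Without KO array 2 of 4 h 5 rose, and with the arrays numbered 2 as the only KO arrays 2 rose and 5 fell. The KO median of the list against 0 h was 2.95 at 24 h and 3.84 at 72 h, with Mki67 at 8.75 ± 0.11 and 10.25 ± 0.04 (SD, n = 3). At the G1 gate 7 of 22 genes rose and 7 fell. Cdkn1a, which encodes the inhibitor p21, rose 12.5-fold (3.64), from 3.62, 3.59 and 3.32 to 7.0, 7.07 and 7.39, whereas the inhibitor genes Cdkn2d (-2.45) and Cdkn1b (-1.23) and the cyclin gene Ccnd3 (-1.60) fell. E2f2 fell by 0.81 in KO and 1.61 in WT (difference 0.80, SE 0.16, adjusted p = 0.0118 from limma). That difference lost its call with the groups compared alone (0.80), arrays 1 and 2 alone (0.73) and the arrays numbered 2 as the only KO arrays (1.01), where the fall in KO (-0.60) lost it too.

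In the BCL2 family 3 of 15 rose and 3 fell, 40% against 31.1% of all genes, Bcl2a1a by 2.04, whose probes may also read its near-identical copies, and Bid by 0.86. The 3 falls were 1 without KO array 1 of 0 h or with the arrays numbered 2 as the only KO arrays. Of 18 p53 target genes 9 rose and 4 fell (72.2%, median 0.40), with Plk3 (2.65) and Tnfrsf10b (1.79) next to Cdkn1a. Among 20 genes of regulatory T cells 9 rose and 0 fell (45%, median 0.19; 1 lower without KO array 2 of 0 h or array 3 of 4 h), some of which, such as Il2ra, are also genes of activation. Of 15 regulators of mRNA decay 4 rose and 8 fell, Zfp36l2 by 1.35 (3 lower with the arrays numbered 2 as the only KO arrays).

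Partners of TRIM28 in silencing moved in both directions, 8 of 26 higher and 12 lower (median -0.06, and -0.22 with arrays 1 and 2 alone; 4 higher with the arrays numbered 2 as the only KO arrays). The DNA methyltransferase gene Dnmt3a rose by 1.09, from 6.38, 6.52 and 6.58 to 7.29, 7.74 and 7.72, and the histone methyltransferase gene Setdb1, which TRIM28 recruits, by 0.48 (0.39 and not called with the arrays numbered 2 as the only KO arrays). Ehmt2, which writes methylation on histone H3, fell by 1.05. The 336 genes whose symbol is Zfp with a number are zinc finger genes, many of which encode KRAB proteins that bind TRIM28. Of these 47 rose and 73 fell, or 35.7% against 31.1% of all genes (21 and 26 with the arrays numbered 2 as the only KO arrays). At least 2-fold changes were 3 rises and 14 falls among the 336, where such rises and falls made up 3.36% and 3.83% of all genes. Of the 120 called genes 116 had the same sign in WT, against 6712 of the 6895 called over all genes.

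Zfp948 had the largest change of the zinc finger list. It went from 6.04, 6.11 and 5.35 to 9.08, 9.01 and 9.03 in KO, a 9.23-fold rise (3.21, SE 0.14, adjusted p = 1.52e-15 from limma). Its WT level at 0 h was lower, 4.83 ± 0.28 (SD, n = 3), and rose by 4.54 to 9.37 ± 0.10, so the 2 genotypes ended close to each other and the difference in response was -1.34 (SE 0.20, adjusted p = 0.000554). Zfp760 fell by 0.45 in KO (no call without KO array 3 of 0 h, -0.30, or of 4 h, -0.37) and rose by 0.61 in WT (difference -1.06, SE 0.22, adjusted p = 0.0139), a difference without a call with the groups compared alone (-1.06), with arrays 1 and 2 alone (-0.88) and with the arrays numbered 2 as the only KO arrays (-0.89).

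Most genes that changed in one genotype changed in the same direction in the other. The comparison of the 2 responses, which share no arrays, asks which part of the 4 h programme depends on the genotype. In WT 7695 genes passed the threshold (34.7%), and 5779 of them passed in KO in the same direction, which is 83.8% of the KO genes and 75.1% of the WT genes, against 14 in opposite directions. At least 2-fold rises in WT numbered 900 (4.06%) and falls 1111 (5.01%), and the WT arrays of the 2 times did not overlap for 8940 genes (40.3%). Of the 1596 genes with at least 2-fold changes in KO, 1589 had the same sign in WT. Across all genes the 2 changes correlated at r = 0.918, and at 0.974 over the 1596, a description across genes, which are not independent replicates. The median absolute change of the genes called in KO was 0.618 in KO and 0.676 in WT.

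**Figure D4:**
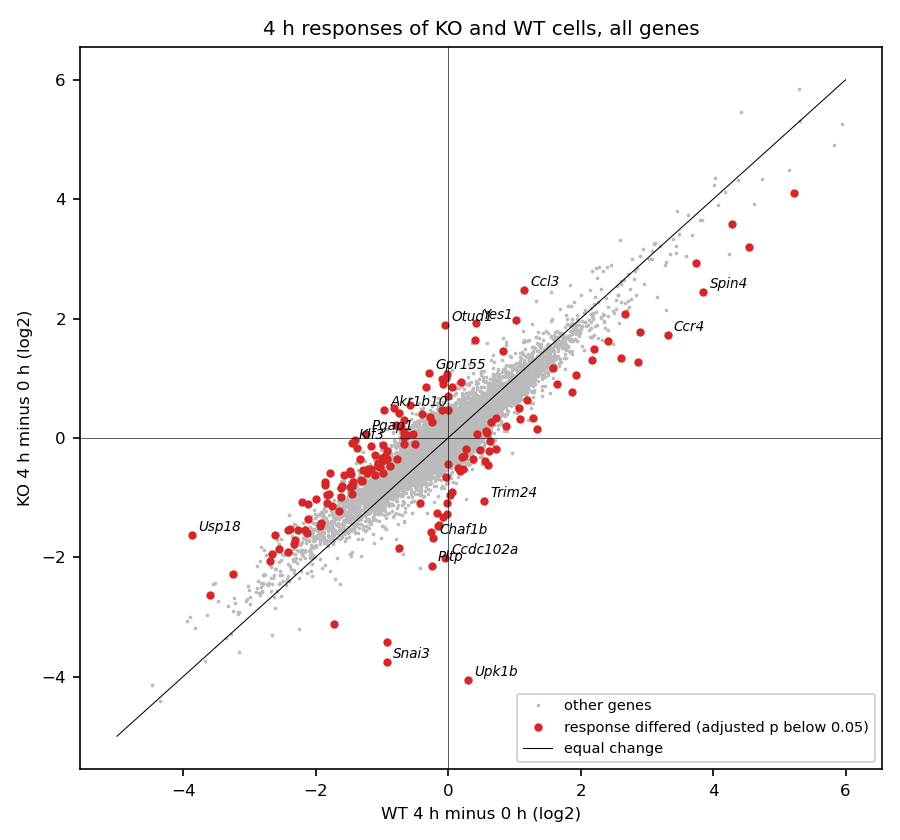
Change at 4 h against 0 h in KO (log2, vertical axis) against that in WT (log2, horizontal axis) for all 22180 genes, with the line of equal change. The 161 red points are genes whose responses differed (adjusted p below 0.05), the 16 labelled ones the 8 highest and 8 lowest differences among named genes; most points follow the line (r = 0.918).

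The responses differed for 161 genes (0.726%), 99 with a higher change in KO (0.446%) and 62 with a lower one (0.28%). At an unadjusted p below 0.05 there were 2422. Of the 161, 87 fell in KO, 58 of them by less than in WT, and 47 rose, 23 of them by less than in WT, while 27 were not called in KO. In 24 genes the KO change was the larger one in the same direction, and in 12 both changes were called with opposite signs. The direction of a difference does not say when the genotypes were apart: the gap between the KO and WT means was larger at 4 h for 94 of the 161 genes and larger at 0 h for 67. The median gaps were 0.34 at 0 h and 0.49 at 4 h, against 0.09 and 0.11 over all genes. Genes chosen for a difference in response must have a gap at 1 time or more, so these larger medians follow from the choice. The count of 161 was 29 with the arrays numbered 2 as the only KO arrays, 76 with arrays 1 and 2 alone and 79 with the groups compared alone. The 99 were 65 without KO array 2 of 0 h and 64 without WT array 2 of 0 h. In every fit that left out 1 array, 80 of the 161 kept their call.

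One set of these genes rose, or kept its level, in KO and not in WT. Otud1, a deubiquitinase, was level in WT, at 7.19, 7.18 and 7.06 before and 6.96, 7.29 and 7.01 after, and rose 3.69-fold in KO, from 7.26, 7.13 and 7.20 to 8.93, 9.25 and 9.07 (1.89). The genotypes thus started together and were apart at 4 h (difference 1.94, SE 0.15, adjusted p = 1.95e-08 from limma), and Otud1 remained at 7.86 ± 0.18 (SD, n = 3) at 24 h and 7.89 ± 0.05 at 72 h in KO. Yes1, a kinase of the SRC family, rose by 1.93 in KO, from 4.68, 4.88 and 4.81 to 6.22, 6.84 and 7.08, and was at 0.42 in WT without a call (difference 1.51, SE 0.24, adjusted p = 0.000956; 1.25 and not called with arrays 1 and 2 alone). Gpr155 rose by 1.09 in KO and was at -0.29 in WT (difference 1.38, SE 0.22; 1.20 and not called with arrays 1 and 2 alone). Akr1b10, an aldo-keto reductase, rose by 0.46 in KO and fell by 0.97 in WT (difference 1.43, SE 0.19), the rise without a call when KO array 2 of 0 h (0.32) or KO array 1 of 4 h (0.38) was left out. Pgap1, which remodels lipid anchors of proteins, was at 7.47, 7.23 and 7.36 and then at 7.30, 7.42 and 7.51 in KO, and fell by 1.24 in WT (difference 1.30, SE 0.14, adjusted p = 3.19e-06), a pattern like that of Klf3.

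Another set started high in naive KO cells and fell at 4 h, while the WT level fell less, rose or had no call. Snai3, a zinc finger repressor related to Snail, was at 8.63, 8.74 and 8.70 in KO at 0 h and at 5.16, 4.74 and 4.90 at 4 h, a 13.5-fold fall (-3.76, SE 0.18). The WT arrays held 4.24, 4.33 and 4.55 at 0 h and 3.23, 3.88 and 3.22 at 4 h (difference -2.83, SE 0.25, adjusted p = 2.79e-07 from limma), so the KO arrays of 4 h still lay above every WT array of 0 h. Upk1b, a uroplakin of the bladder lining, was at 8.80, 7.25 and 10.03 and then at 4.51, 3.84 and 5.55, with the widest spread of the genes named and the same order of arrays at both times, and was near 3.40 in WT (difference -4.37, SE 0.62, adjusted p = 0.000265). Trim24, a bromodomain corepressor related to TRIM28, went from 10.35, 10.30 and 10.50 to 9.32, 9.34 and 9.34 in KO (-1.06) and rose by 0.54 in WT (difference -1.60, SE 0.11, adjusted p = 4.27e-09). Ccdc102a fell by 2.01 in KO and was at -0.04 in WT, and Pltp, a phospholipid transfer protein, fell by 2.14 and was at -0.25. Pltp was at 5.73, 4.77 and 4.81 in KO at 0 h, with array 1 the highest.

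The list of 19 genes that are high without TRIM28, which was chosen from KO and WT levels of these arrays and is therefore a description only, had 5 members that rose and 8 that fell at 4 h in KO. The count of 5 was 3 without KO array 1 or 2 of 0 h or with arrays 1 and 2 alone, and 2 with the arrays numbered 2 as the only KO arrays. Besides Yes1, Trim24, Usp18, Snai3 and Upk1b, Ly6d fell by 1.25 and Cacna1b by 0.67, and Gstt2 (0.02), Gstt1 (-0.16) and Nrp1 (0.04) had no call. The members thus included genes that rose, genes that fell and genes without a call.

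**Figure D5:**
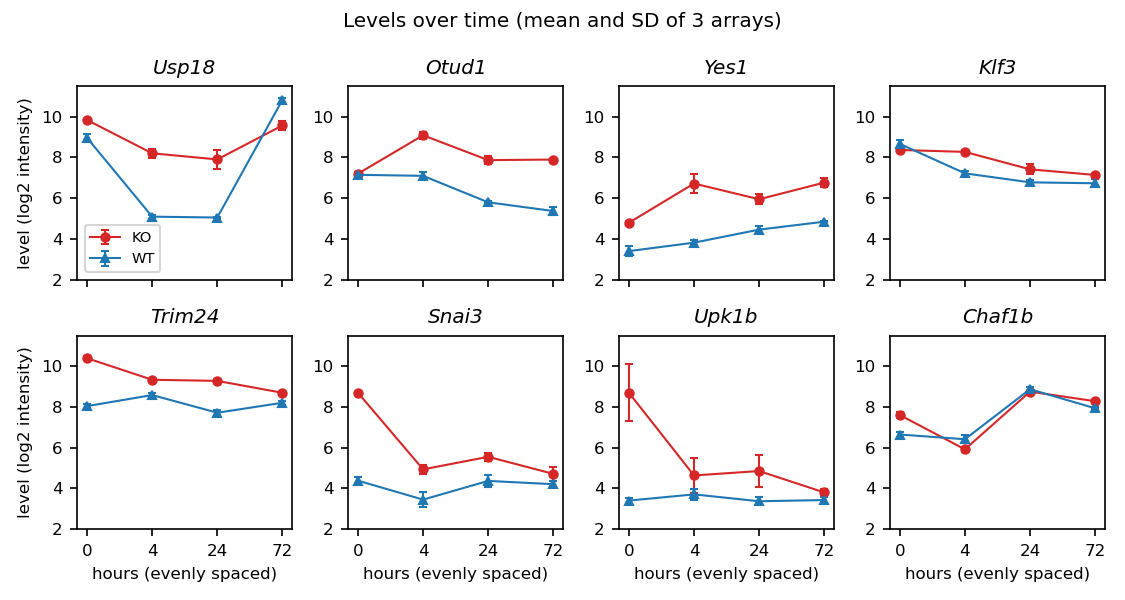
Level (log2 intensity, vertical axis) of 8 genes whose 4 h response differed between the genotypes, at 0, 4, 24 and 72 h (horizontal axis, evenly spaced), as mean and SD of 3 arrays of KO (red circles) and WT (blue triangles). Otud1 starts together and parts at 4 h, Klf3 is higher in KO at 4 h after a start slightly below WT (8.36 and 8.66 in the means), and Snai3, Upk1b and Trim24 start high in KO and fall.

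A further set was induced less in KO. Spin4, a reader of histone methylation, rose by 2.44 in KO, from 3.32, 3.45 and 3.31 to 5.32, 6.09 and 5.98, and by 3.85 in WT, which reached 7.39, 7.40 and 7.63 (difference -1.42, SE 0.21, adjusted p = 0.000554 from limma). Ccr4, Spry1, Irf8 and Tnfrsf1b, given above, belong here as well. Chaf1b, a subunit of the histone chaperone CAF-1, started higher in KO and fell by 1.68, from 7.45, 7.61 and 7.73 to 6.03, 5.93 and 5.79, where WT held 6.66, 6.49 and 6.77 and then 6.61, 6.21 and 6.40 (difference -1.45, SE 0.13, adjusted p = 3.85e-07). By 24 h Chaf1b stood at 8.75 ± 0.02 (SD, n = 3) in KO and 8.86 in WT. Chaf1b lies next to Morc3 and Morc3 next to Dop1b on chromosome 16 in the RefSeq order of the tested genes. Genes that were not tested can lie between neighbours in this order. All 3 responses were lower in KO: the differences were -0.75 for Dop1b and -0.63 for Morc3, an ATPase linked to silencing. This neighbourhood was noticed after the values were seen, in a search of all genes with a differing response. In the same order of tested genes, that search also found Pgap1 next to Ankrd44 (1.30 and 0.57), Sidt1 next to Spice1 (0.74 and 0.60) and Crtap next to Ccr4 (-0.68 and -1.59). Cux1 (0.51) lay next to a small RNA gene (1.32). How many neighbours the order of genes alone would give was not tested. The call of Morc3 was lost without KO array 1 (-0.61) or 3 (-0.50) of 0 h or WT array 3 of 0 h (-0.58), and those of Dop1b and Morc3 with arrays 1 and 2 alone (-0.59 and -0.46) and with the arrays numbered 2 as the only KO arrays (-0.55 and -0.33).

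Markers of other cell types were followed because the sort gate is not given. Of 16 B cell markers 5 fell and 2 rose in KO at 4 h (43.8% against 31.1% of all genes, median -0.40), and 5 fell and 1 rose in WT (median -0.28). Cd79a, a chain of the B cell receptor, was at 7.20, 6.30 and 7.05 at 0 h and at 5.71, 5.02 and 5.53 at 4 h (-1.43), Cd22 fell by 1.69, Bank1 by 1.68 and Cd79b by 1.06, and Ms4a1, the gene of CD20, was at -0.69 without a call. Pou2af1, a co-activator of B cells that activated T cells also express, rose by 3.1, and Fcer2a by 1.03, without a call when KO array 2 of 0 h (0.84) or KO array 1 (0.82) or 3 (1.05) of 4 h was left out. The summed log2 level of the 16 markers was 77.9 to 89.6 in the KO arrays at 0 h, with array 2 the lowest, and 75.1 to 82.8 at 4 h, against 68.5 to 82.1 and 67.5 to 78.3 in WT. With the arrays numbered 2 as the only KO arrays 3 fell and 1 rose, and the calls of Cd79a (-1.28) and Cd79b (-0.72) ended.

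Of 21 myeloid markers 2 fell and 0 rose in KO, or 9.52% (8 fell without KO array 2 of 0 h, 4 without KO array 1 of 4 h and 1 without KO array 2 of 4 h). Their summed levels were 79.98 to 91.1 at 0 h and 74.6 to 84.6 at 4 h in KO, against 74.0 to 78.9 and 66.9 to 76.9 in WT. At 0 h every KO array thus lay above every WT array. Csf1r (0.01), Lyz2 (-0.70) and Itgam (-0.46) had no call. Of 10 natural killer and innate lymphoid markers 2 rose and 3 fell, of 7 CD8 T cell markers 2 fell (1 without KO array 2 of 4 h), and of 6 erythroid and platelet markers 1 fell. The 2 rises of the natural killer list were 0 without KO array 1 of 0 h, KO array 1 of 4 h or KO array 3 of 4 h, and 1 without KO array 3 of 0 h, and the 3 falls were 1 without KO array 1 of 4 h. In these bulk samples fewer cells of a type and less RNA per cell cannot be told apart, and the part of the marker shifts in the other changes was not tested. The interferon list had a median of -1.51 with all KO arrays and -1.70 with the arrays numbered 2 alone, and the ribosome biogenesis list 1.53 and 1.51.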

How the data were processed

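RNA of sorted mouse CD4 T cells was labelled with biotin and read on an Affymetrix GeneTitan instrument. The deposited table holds log2 values. Per the submitters' processing notes, the authors made them by RMA with oligo and R 3.1.0. RMA forces the arrays to 1 common distribution and draws small values together, so a shift of all genes at once cannot be seen and folds of dim genes are too small. It gives no detection calls. The sources used here name no batch, date or probe set level, and precision is set by how many arrays there are.

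Of 41345 probe sets, 23521 have 1 gene symbol in the platform annotation, 1814 have several and 16010 have no entry. Entrez IDs tied 23328 to RefSeq (GRCm38.p6), used for names, gene order and promoters. Where a gene had more than 1 probe set (1082 genes), its brightest was kept, leaving 22180 genes. Over all 41345 probe sets no 2 arrays were identical (0 pairs, highest correlation 0.992).

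The tests used limma 3.58.1 (R 4.3.3): group means on all 24 arrays, eBayes with a mean-variance trend (16 residual and 8.81 prior degrees of freedom) and Benjamini-Hochberg adjustment, all tests two-sided. The contrasts were 4 h minus 0 h in KO and in WT and their difference. On simulated data for KO 4 h against 0 h with 22180 genes, 200 of them changed, 96% of changes of size 1 and 63% of size 0.5 were recovered, and 4 of 163 calls were false. In the data 31.1% of the genes were called, so these rates do not carry over to it.

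The genes named are Trim28, the 15 highest and 15 lowest KO changes past the threshold whose arrays do not overlap, up to 6 members with the largest changes of each list, any other list member, and the 8 highest and 8 lowest differences of the responses. Neighbours among the genes with a differing response are named too. Predicted loci, small RNAs and antigen receptor segments were counted only. Members and lists were chosen with earlier results of these data known, so no list was given a test, and its counts are read against the share of all genes that changed. In all groups the array numbered 3 expressed the Y-linked Eif2s3y (8.0 to 8.69), while the arrays numbered 1 and 2 expressed Xist (9.61 to 10.3), so arrays 1 and 2 alone were tried as an alternative. Also tried were averaging probe sets, a filter at the 40th percentile of level, quantile normalization run again, the groups compared alone, a replicate block, robust eBayes, eBayes without a trend, leaving out each array, the arrays numbered 2 as the only KO arrays, and a 2-fold minimum.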

Additional observations from a re-analysis of the deposited data

Results flagged for a closer look

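These results are values for which the KO and WT responses at 4 h differed past the threshold (limma, Benjamini-Hochberg adjustment over all genes). Each is given as the KO change minus the WT change on the log2 scale. They cover the 16 genes with the most extreme differences, with predicted loci, small RNAs and antigen receptor segments left aside. They also cover those of the 30 largest KO changes and of the list members, markers aside, whose call held in every fit that left out 1 array. In all these were 29 genes, and the 16 held in the same way.

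Higher in KO were Usp18 (2.23), Otud1 (1.94), Yes1 (1.51), Akr1b10 (1.43), Gpr155 (1.38), Klf3 (1.35), Ccl3 (1.32) and Pgap1 (1.30), and, among members of lists, Cd226 and Acadm (0.97 each), E2f2 (0.80), Ctla4 (0.67), Ccr7 (0.66) and Acads (0.50). Lower in KO were Upk1b (-4.37), Snai3 (-2.83), Ccdc102a (-1.97), Pltp (-1.89), Trim24 (-1.60), Ccr4 (-1.59), Chaf1b (-1.45), Spin4 (-1.42), Fam240a (-1.39), Zfp948 (-1.34), Mvd (-1.33), Spry1 and Irf8 (-1.13 each), Zfp760 (-1.06) and Tnfrsf1b (-0.71).

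Outside the named genes, 17824 probe sets have several genes or none in the annotation. In KO cells 2477 of them (13.9%) passed the threshold at 4 h against 0 h, 1560 higher and 917 lower, and for 10 the responses of KO and WT differed. They cannot be assigned to 1 gene here.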

How the results depend on the processing

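Of 753 genes followed, 540 were called for the KO change, 401 kept call and direction in every setting apart from the 2-fold minimum, and 0 called values reversed. With that minimum 1596 genes were left in KO (746 higher, 850 lower), 2011 in WT (900 and 1111) and 50 for the difference of the responses (24 and 26). The groups compared alone gave 79 differences (47 and 32) and arrays 1 and 2 alone 76 (47 and 29). With the arrays numbered 2 as the only KO arrays, the lone array of each time being assumed to vary like the WT arrays, 4125 genes passed in KO (2165 and 1960) and 29 differences (18 and 11). Leaving out each array in turn gave 6258 to 7115 genes in KO (3028 to 3454 higher, 3202 to 3661 lower), 7040 to 7712 in WT (3426 to 3742 and 3386 to 4017) and 112 to 216 differences (64 to 148 and 46 to 68), with 49.6% of them higher without KO array 2 of 0 h and 48% with the 2-fold minimum against 61.5%. The cause of these shifts was not tested, beyond the smaller number of arrays in the settings that leave some out.

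With the replicate number as a block within genotype, 6943 genes passed in KO (3352 higher, 3591 lower), 7760 in WT and 197 for the difference. The main fit did not use the numbers as a pairing, and the labels do not say whether arrays of the same number share a source. Deviations of arrays with the same number correlated weakly and positively, at 0.055, 0.144 and 0.097 in KO and at 0.019, 0.097 and 0.143 in WT. As given above, the array numbered 3 was the one with Eif2s3y in every group. Every KO array of 0 h correlated best with its own number, and WT array 1 did not.

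Of 40 list medians, 25 moved by over 0.1 in at least 1 setting. RMA draws low levels together, so changes from near the floor of the scale are too small.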
